A study of Mus musculus with 283 samples.

Results

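The 10 genes Phyhipl, Bex1, Dcdc2a, Cck, Mgll, Hapln1, Mgrn1, Car8, Mlip and Tuba4a were followed across 4 stocks of the mouse melanoma B16. They were taken because their levels differed between stocks in these same tumours, so the stock differences in tumours are given as a description and carry no test. Each gene was read by 1 probe set annotated to it alone, and all 10 were found among the 15224 genes measured that way on the Affymetrix exon array. Values are log2 signals after robust multi-array averaging (RMA), so a difference of 1 is a doubling. The stocks were B16F10 from NCI, B16F10 from ATCC, B16F0 from ECACC and B16F0 from ATCC, each grown under the skin of the back in female C57BI6j mice. Each stock gave 5 tumours, 5 tumour-draining lymph nodes and 5 spleens, under the same 5 animal numbers, and 1 array of cultured cells with no replicate. The labels state no age for the mice. The other 11 tumour models and 12 cultured lines of the series serve as the comparison, in groups of 4 to 8 tumours and 1 culture each. The fits to nodes and spleens also hold those of the other models. They include tumour-free C57 female, C57 male, BALB female and DBA female mice, 5 a group. Strain and sex are stated above for the hosts of B16 alone.

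B16 arose in a C57BL/6 mouse, and B16F10 was derived from B16F0 by repeated passage of cells that had colonised the lung. Stocks kept apart in different repositories are passaged separately, and such stocks of one line can come to differ. Melanocytes come from the neural crest, and the genes followed here encode proteins better known from nerve, muscle, gut or matrix. Bex1 is an X-linked adaptor that binds the neurotrophin receptor p75, and Phyhipl is named for its likeness to the brain protein that binds the peroxisomal enzyme phytanoyl-CoA hydroxylase. Cck encodes the peptide hormone cholecystokinin, and Mgll encodes monoacylglycerol lipase, which breaks down the endocannabinoid arachidonoylglycerol. Hapln1 is a link protein that holds hyaluronan and proteoglycans together in the matrix. Dcdc2a is a doublecortin-domain protein of microtubules and cilia, Tuba4a is an alpha-tubulin, Mlip binds lamin A in muscle, and Car8 is a carbonic anhydrase relative that lacks the enzyme activity. Mgrn1, or mahogunin, is a ubiquitin ligase whose loss darkens the coat of mice through the melanocortin pathway.

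Promoter windows show how unlike these genes are at their starts. RefSeq (GRCm38.p6) gave windows for 9 of the 10 genes, each of 250 bases before and 50 after an annotated start. The windows of Phyhipl (chr10:70599242-70599541, minus strand), Bex1 (chrX:136215464-136215763, minus strand), Cck (chr9:121495645-121495944, minus strand) and Mgrn1 (chr16:4885850-4886149, plus strand) are printed because these genes mark the stock patterns described next. They run 5′ to 3′ in lower case with each CG pair in capitals.
Phyhipl: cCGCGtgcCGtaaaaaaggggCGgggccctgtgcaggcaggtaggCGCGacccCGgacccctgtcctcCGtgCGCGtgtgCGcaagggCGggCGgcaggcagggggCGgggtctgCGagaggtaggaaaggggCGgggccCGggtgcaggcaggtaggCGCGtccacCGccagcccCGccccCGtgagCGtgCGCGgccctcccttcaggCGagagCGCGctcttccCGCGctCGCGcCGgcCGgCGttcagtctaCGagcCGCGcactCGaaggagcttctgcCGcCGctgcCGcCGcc
Bex1: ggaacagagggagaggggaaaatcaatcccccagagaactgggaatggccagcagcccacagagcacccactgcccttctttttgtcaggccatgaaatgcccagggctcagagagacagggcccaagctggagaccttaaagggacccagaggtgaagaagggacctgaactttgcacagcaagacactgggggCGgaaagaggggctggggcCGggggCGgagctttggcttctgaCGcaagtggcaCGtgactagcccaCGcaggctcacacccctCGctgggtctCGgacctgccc
Cck: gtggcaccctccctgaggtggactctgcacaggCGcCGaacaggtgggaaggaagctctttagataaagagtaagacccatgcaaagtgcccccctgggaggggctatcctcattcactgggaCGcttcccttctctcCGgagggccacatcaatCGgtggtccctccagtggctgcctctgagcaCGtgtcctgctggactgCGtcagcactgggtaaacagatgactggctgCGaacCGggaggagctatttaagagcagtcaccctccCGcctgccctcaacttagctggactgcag
Mgrn1: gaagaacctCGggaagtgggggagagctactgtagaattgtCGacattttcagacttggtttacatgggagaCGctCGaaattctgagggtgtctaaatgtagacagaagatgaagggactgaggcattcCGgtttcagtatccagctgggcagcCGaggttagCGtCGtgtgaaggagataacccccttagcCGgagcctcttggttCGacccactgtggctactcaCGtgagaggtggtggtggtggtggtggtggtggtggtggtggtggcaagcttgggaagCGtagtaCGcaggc
Phyhipl held 43 CG pairs in this window, a number reached by 2.61% of 32851 promoter windows, while its second window, at chr10:70592763-70593062, held 0. Bex1 held 8, Cck 10 and Mgrn1 13, against a median of 7 over all windows. Phyhipl and Bex1, which followed the same stock pattern, therefore had printed windows of very different CG content. Which start of Phyhipl is used in B16 was not measured. The letters CACGTG, the same on both strands, occurred in a window of 5 of the 9 genes (Bex1, Cck, Mgll, Mgrn1 and Mlip) and in 7.15% of all windows. The letters CATGTG, sought on both strands, occurred in a window of 2 of the 9 genes and in 14.2% of all windows. The 9 genes had 12 windows, so these counts of genes and shares of windows are unlike measures. A match to these letters is a description of the window and says nothing of binding.

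The tissue labels fit the melanocyte markers. The mean of the 8 melanocyte genes measured of 9 listed was between 9.68 and 10.2 in every B16 tumour, with all 8 above 4.30, the 25th percentile of all values. Of the 8, 0 were called in any of the 3 stock comparisons below. Array medians ran from 5.22 to 5.38 in the B16 tumours. The stocks were given separate runs of sample numbers, so stock and order of processing cannot be told apart. One library stood apart from its label. Over 236 other genes with a range of at least 1 between stock means in tumours, the B16F0 ATCC culture had a correlation of -0.126 with the pattern of the B16F0 ATCC tumours, and its highest was 0.152, with B16F10 NCI. The other cultures correlated best with tumours of their own stock, at 0.177 for B16F10 NCI, 0.376 for B16F10 ATCC and 0.477 for B16F0 ECACC, although the B16F10 ATCC culture reached 0.348 with B16F0 ATCC tumours as well. Over the same genes, each tumour set against the others was closest to its own stock in 4 of 5 tumours of B16F10 NCI, 2 of 5 of B16F10 ATCC, 5 of 5 of B16F0 ECACC and 3 of 5 of B16F0 ATCC. The genes were chosen for differing between stock means of these same tumours, so closeness to the own stock is partly built in. The exception in B16F10 NCI was tumour 1, with 0.0881 to its own stock and 0.171 to B16F0 ATCC. Some results on cultures are therefore also given without the B16F0 ATCC culture, while the counts of stock order and of sign include it.

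The genes followed a few patterns, and the first is a high level in B16F10 NCI. Phyhipl (chromosome 10, 70557686 to 70599291) read 7.31, 7.79, 6.05, 7.19 and 7.58 in the 5 B16F10 NCI tumours. It read 4.52, 4.81, 4.99, 4.57 and 4.39 in B16F10 ATCC, 4.41, 4.18, 4.42, 3.93 and 3.81 in B16F0 ECACC, and 4.04, 4.89, 4.27, 4.07 and 3.92 in B16F0 ATCC. All 5 NCI tumours thus lay above all 15 others, while the other 3 stocks overlapped one another. Bex1 (chromosome X, 136213972 to 136215513) read 6.55, 5.88, 6.19, 6.45 and 6.65 in B16F10 NCI tumours. It lay between 3.50 and 4.02 in B16F10 ATCC, between 3.68 and 3.90 in B16F0 ECACC and between 3.52 and 4.34 in B16F0 ATCC. Only 1 of those 15 tumours exceeded 4.30, so Bex1 was near the lower end of the measured range wherever it was not high. The difference between B16F10 NCI and B16F10 ATCC means was 2.53 ± 0.24 for Phyhipl and 2.60 ± 0.24 for Bex1 (standard error of the fit, n = 5 and 5). In bulk tissue, more cells with a transcript and more transcript per cell cannot be told apart. Across the 20 tumours the values of these 2 genes had a correlation of 0.93, which the gap between stocks largely sets, and 0.26 after each stock's mean was subtracted.

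The second pattern is a departure of B16F0 ECACC from the other stocks, upward for Cck and Mgll. Cck (chromosome 9, 121489824 to 121495694) read 8.46, 7.88, 8.85, 6.97 and 7.78 in B16F0 ECACC tumours. In B16F0 ATCC tumours it read 4.00, 7.17, 4.45, 3.84 and 3.06, and the 7.17 came from animal 11. That 1 tumour lay within the range of the ECACC tumours and its 4 companions did not. The difference between B16F0 ECACC and B16F0 ATCC was 3.48 ± 0.37, and it was 4.15 without animal 11. B16F10 NCI (4.01 to 5.93) and B16F10 ATCC (4.59 to 5.96) lay between. Mgll (chromosome 6, 88724412 to 88828360) read 8.89, 8.86, 8.66, 8.54 and 9.09 in B16F0 ECACC tumours, against 5.60, 6.45, 5.49, 5.66 and 5.69 in B16F0 ATCC tumours. The highest of the ATCC values came from the same animal 11. B16F10 NCI tumours spread from 6.05 to 8.11 and B16F10 ATCC tumours from 5.84 to 6.95, so for Mgll the ECACC tumours stood above all 15 others.

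Dcdc2a, Tuba4a, Car8 and Mlip had their lowest mean in B16F0 ECACC tumours. Dcdc2a (chromosome 13, 25055273 to 25210706) read 4.21, 5.18, 4.61, 4.69 and 5.03 in B16F0 ECACC, against 6.61, 6.63, 7.16, 6.43 and 5.96 in B16F0 ATCC. B16F10 NCI (6.64 to 7.40) and B16F10 ATCC (6.30 to 7.18) overlapped the B16F0 ATCC range, so only the ECACC stock stood off. Tuba4a (chromosome 1, 75214972 to 75221261) followed the same course, with 6.47, 5.84, 6.39, 6.37 and 5.94 in B16F0 ECACC and 7.67, 7.39, 7.89, 7.75 and 7.65 in B16F0 ATCC. Its B16F10 NCI tumours (6.73 to 7.62) were also below most of the B16F10 ATCC tumours (7.46 to 8.04). Car8 (chromosome 4, 8141493 to 8239041) read 4.37, 3.69, 4.46, 4.67 and 3.66 in B16F0 ECACC, against 5.93, 4.81, 5.46, 4.70 and 4.70 in B16F0 ATCC. The ranges of those stocks did not overlap but nearly met, and B16F10 NCI (5.24 to 6.11) and B16F10 ATCC (5.31 to 6.18) were higher. Mlip (chromosome 9, 77102084 to 77352782) read 4.04, 3.98, 5.19, 3.61 and 4.33 in B16F0 ECACC, against 5.47, 5.39, 6.35, 5.96 and 6.39 in B16F0 ATCC. Mlip varied widely inside B16F10 NCI, from 3.52 to 5.91, and inside B16F10 ATCC, from 4.15 to 5.87, so no stock but B16F0 ATCC kept clear of ECACC.

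The third pattern set the ATCC stocks against the others. Mgrn1 (chromosome 16, 4886100 to 4938296) read 6.35, 6.32, 6.37, 6.49 and 6.30 in B16F10 NCI tumours, against 7.97, 7.97, 7.27, 7.77 and 7.44 in B16F10 ATCC tumours. It read 6.58, 6.13, 6.29, 6.49 and 6.74 in B16F0 ECACC tumours, against 7.55, 7.66, 8.20, 7.84 and 8.21 in B16F0 ATCC tumours. All 10 ATCC tumours exceeded all 10 tumours from NCI and ECACC, whichever the subline. The difference was -1.32 ± 0.13 for B16F10 NCI minus B16F10 ATCC and -1.45 ± 0.13 for B16F0 ECACC minus B16F0 ATCC. The NCI and ECACC means, 6.37 and 6.45, were within the range of Mgrn1 in the nodes (5.98 to 6.96) and spleens (6.10 to 6.93) of B16-bearing mice. Hapln1 (chromosome 13, 89540529 to 89611832) had both B16F10 means below both B16F0 means, without Mgrn1's split by supplier. It read 4.27, 4.49, 4.15, 3.64 and 3.90 in B16F10 NCI and 4.66, 4.62, 4.32, 3.79 and 4.53 in B16F10 ATCC, against 5.06, 4.99, 5.50, 5.69 and 5.23 in B16F0 ECACC and 4.65, 4.07, 5.75, 5.94 and 5.65 in B16F0 ATCC. Animals 10 and 11 of B16F0 ATCC lay in the B16F10 range, so the sublines overlapped.

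**Figure D1:**
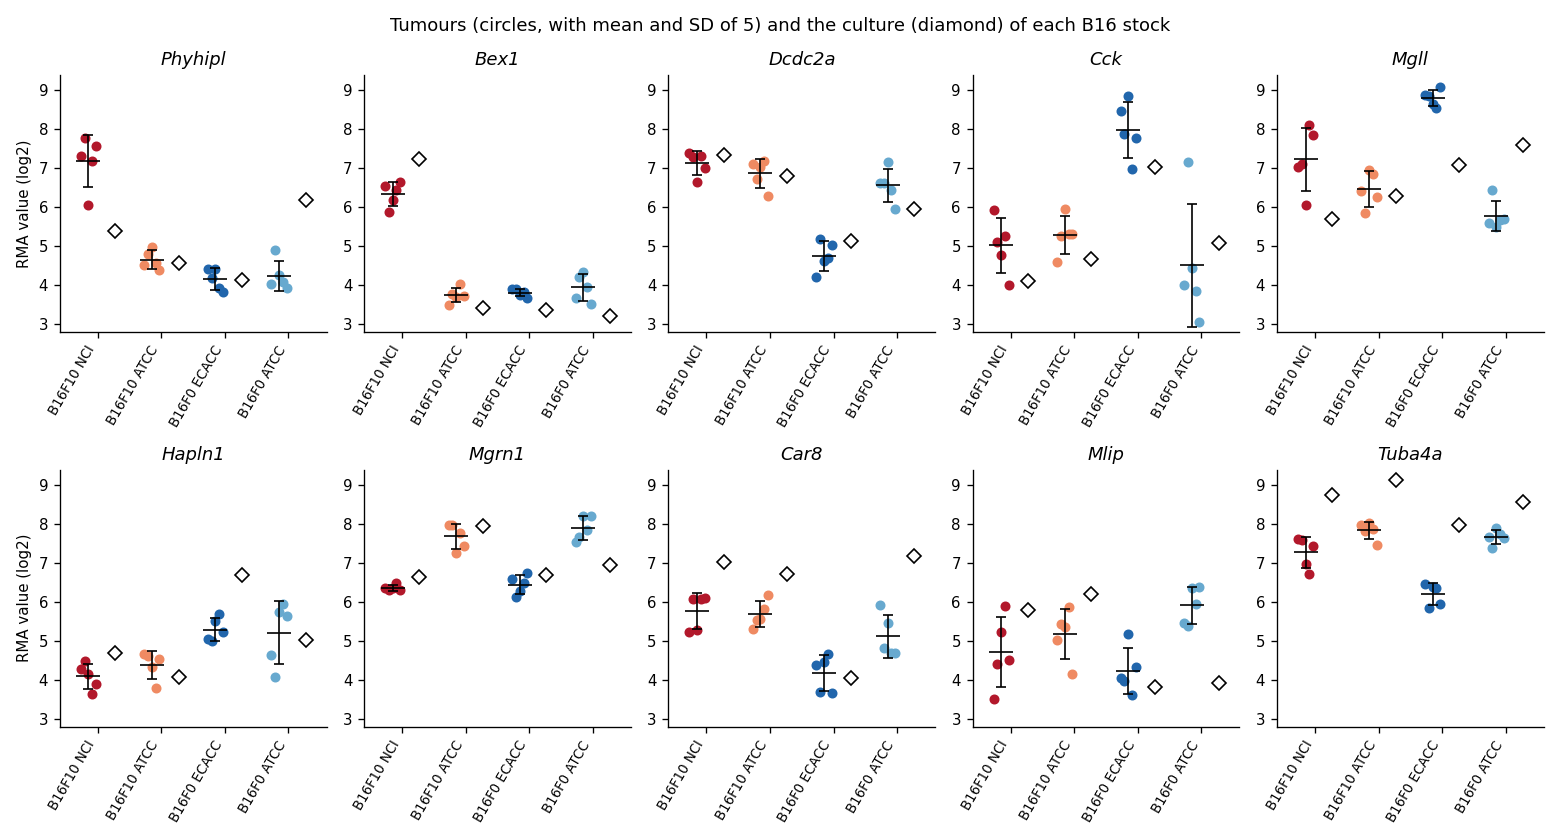
RMA values (log2) of the 10 genes in B16 tumours (circles, with the mean and SD of 5 as black bars) and in the single culture of each stock (open diamond), for B16F10 NCI, B16F10 ATCC, B16F0 ECACC and B16F0 ATCC. Phyhipl and Bex1 are high in B16F10 NCI tumours, Cck and Mgll in B16F0 ECACC tumours, and Mgrn1 is high in both ATCC stocks.

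The background of these comparisons is the share of all genes called in each. Calling a gene took both a limma p under 0.05 after Benjamini-Hochberg adjustment and an absolute difference of at least 1. B16F10 minus B16F0 tumours called 6 of the 10 genes, where 0.0582% of 13746 genes were called. Of the 6, Phyhipl, Bex1, Dcdc2a and Car8 were higher (0.0364% of all genes) and Cck and Hapln1 lower (0.0218%). Both lower genes were near the limits used. When each of the 20 tumours was left out in turn, Cck was not called in 5 fits (without B16F10 NCI tumours 3 or 6, B16F10 ATCC tumour 11, B16F0 ECACC tumour 3 or B16F0 ATCC tumour 11), and its difference of -1.10 was -0.76 without B16F0 ATCC tumour 11. Hapln1 was not called in 8 of the 20, where its difference of -1.02 came to between -0.99 and -0.92, the last without B16F0 ATCC tumour 7. Neither was called after quantile normalisation, nor Cck in a fit to the groups compared, while the 4 higher genes were called in all 20 fits. B16F10 NCI minus B16F10 ATCC called 3 of the 10, against 0.124% of all genes, with Phyhipl and Bex1 higher (0.08%) and Mgrn1 lower (0.0436%). B16F0 ECACC minus B16F0 ATCC called 6, against 0.473%, with Cck and Mgll higher (0.335%) and Dcdc2a, Mgrn1, Mlip and Tuba4a lower (0.138%). Mlip was not called there without B16F0 ECACC tumour 4 or without B16F0 ATCC tumour 9. Since the genes were picked from these comparisons, the counts only restate the choice. Calls kept when a tumour is left out reuse the same tumours and are no further support. The ranges of the 5 tumours of each stock did not overlap for 3 of the 10 genes between B16F10 NCI and B16F10 ATCC (1.63% of all genes) and for 6 between B16F0 ECACC and B16F0 ATCC (2.84% of all genes). The subline difference also varied with the stocks compared. Between the 2 stocks of the same supplier, B16F10 ATCC minus B16F0 ATCC, the 10 genes differed by between -0.83 (Hapln1) and 0.78 (Cck), and limma called 0 of them and 0 of 13746 genes (0.0%), with 799 genes at an unadjusted p under 0.05. Leaving out B16F0 ATCC tumour 10 gave 1 called gene there, and leaving out any other of the 20 B16 tumours 0. Across sublines and suppliers together, B16F10 NCI minus B16F0 ECACC called 8 of the 10 genes (0.502% of all genes, 0.226% higher and 0.276% lower), with Mgrn1 (-0.08) and Mlip (0.49) as the exceptions, and Tuba4a was not called there without B16F10 NCI tumours 1 or 2 or B16F0 ECACC tumour 2. B16F10 NCI minus B16F0 ATCC called 5 (0.364%, with 0.298% higher and 0.0655% lower), of which Hapln1 was not called without B16F0 ATCC tumours 7 or 12, and neither Hapln1 nor Mgll in a fit to the groups compared. B16F10 ATCC minus B16F0 ECACC called 6 (0.407%, with 0.138% higher and 0.269% lower). These comparisons share tumours with one another and with the 3 that chose the genes.

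Markers of other cells moved with some of the same contrasts. The mean of 9 macrophage and monocyte genes measured of 10 listed ranged over tumours from 5.11 to 6.41 in B16F10 NCI, 5.06 to 6.13 in B16F10 ATCC, 5.32 to 6.05 in B16F0 ECACC and 4.44 to 6.24 in B16F0 ATCC. In B16F0 ECACC minus B16F0 ATCC, 1 of the 9 was called, the monocyte chemokine receptor Ccr2 (1.61), and in B16F0 ATCC tumours Adgre1 and Ccr2 had means under 4.30. The mean of 5 type I interferon targets measured of 8 listed ranged from 5.47 to 7.01 in B16F10 NCI, against 5.05 to 5.85 in B16F10 ATCC, and 1 of the 5, the antiviral membrane protein Bst2, was called (1.37). The same mean ranged from 5.62 to 6.14 in B16F0 ECACC, against 4.97 to 5.49 in B16F0 ATCC, with no overlap, and there 0 of the 5 were called although Ifit1 differed by 1.00 and Bst2 by 0.74. Skeletal muscle genes, 6 measured of 8 listed, ranged from 5.73 to 6.60 in B16F10 NCI and 4.99 to 6.09 in B16F10 ATCC, with 0 of 6 called. The 6 differed between these stocks by 0.12 (Ckm) to 1.75 (Tnnc2, 6.97 against 5.22). Adipocyte genes (7 of 7 measured) and Schwann cell and neuron genes (6 of 9 measured) had 0 called in each of the 3 contrasts, and Snap25, Elavl4 and Stmn2 had means under 4.30 in tumours of all 4 stocks. The part of these cells in the stock differences was not tested. The cultures, 1 array a stock, are given next.

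Cultures shared some of the stock order of the tumours. The stock with the highest tumour mean was highest in culture for 5 of the 10 genes, and the stock with the lowest was lowest for 6. The share over all genes was not counted, so these counts have no background. Among the 6 is Mlip, whose 2 lowest cultures were both under 4.30. The NCI, B16F10 ATCC, B16F0 ECACC and B16F0 ATCC cultures read 7.24, 3.41, 3.35 and 3.20 for Bex1. Bex1 was again high in the NCI stock alone, by 3.83 over B16F10 ATCC, where 3.23% of all genes differed by at least 1. Because 1 culture only exceeded 4.30, Bex1 was below the filter on low values and was not tested in cultures. Cck read 4.11, 4.67, 7.04 and 5.09 in the 4 cultures in the same order, and Hapln1 4.68, 4.08, 6.70 and 5.03. Both were highest in B16F0 ECACC, as in the tumours. Dcdc2a read 7.35, 6.79, 5.12 and 5.96, with ECACC lowest as in tumours. Car8 read 7.02, 6.73, 4.04 and 7.17, and Tuba4a 8.76, 9.13, 7.99 and 8.57. Again ECACC was lowest for both. Mgrn1 read 6.65, 7.96, 6.70 and 6.95, so the B16F10 ATCC culture was high as its tumours were, while the B16F0 ATCC culture lay 0.25 above the ECACC culture rather than the 1.45 seen in tumours.

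The B16F0 ATCC culture also held the clearest disagreements. Phyhipl read 5.38, 4.56, 4.14 and 6.19 in the B16F10 NCI, B16F10 ATCC, B16F0 ECACC and B16F0 ATCC cultures, so the highest culture was of a stock whose tumours read 3.92 to 4.89. Mgll read 5.69, 6.29, 7.09 and 7.59, and Mlip 5.79, 6.20, 3.82 and 3.91. For Mgll the B16F0 ATCC stock was highest among cultures and had the lowest tumour mean. For Mlip its culture was close to the lowest, while its tumour mean was the highest. Of the 15 calls of these genes in the 3 tumour contrasts, 13 had the same sign in cultures and 8 of those were at least 1 in size. Among the 13 is Mlip in B16F0 ECACC minus B16F0 ATCC, at -0.09 between cultures both under 4.30, where the sign means little. Some genes count in more than 1 contrast, and the contrasts share arrays, so the 15 are not independent. By comparison, calls kept their sign in 5 of 6 for B16F10 minus B16F0, 3 of 3 for B16F10 NCI minus B16F10 ATCC and 5 of 6 for B16F0 ECACC minus B16F0 ATCC. The exceptions were Phyhipl in the first (1.73 in tumours, -0.20 in cultures) and Mgll in the last (3.03 in tumours, -0.50 in cultures). Among the other genes called in tumours, the sign was kept for 2 of 2, 12 of 14 and 35 of 59 in the same 3 contrasts. Of these other genes, 2, 2 and 10 kept the sign at a size of at least 1, against 5, 2 and 1 of the 10 genes. The 8 include Bex1 in the first 2 contrasts (2.05 and 3.83), where 1 culture only exceeded 4.30. Each culture difference between 2 stocks rests on 1 array a side and has no test.

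Between sublines, 2 cultures could be set against 2. limma called 0 of the 9 genes tested and 0 of 11874 genes (0.0%), with 845 genes at an unadjusted p under 0.05. The largest differences of B16F10 minus B16F0 cultures were 2.13 ± 0.22 for Mlip, -1.68 ± 0.64 for Cck and 1.53 ± 0.35 for Dcdc2a. Mlip was under the filter on low values in the B16F0 ECACC (3.82) and B16F0 ATCC (3.91) cultures. It entered the fit through the B16F10 cultures alone and had to be higher in them, so its difference is only a description. Without the B16F0 ATCC culture the same holds for Mlip, and also for Car8 (4.04) and Phyhipl (4.14), which were under 4.30 in the B16F0 ECACC culture. Without the B16F0 ATCC culture, the mean of the B16F10 cultures minus the B16F0 ECACC culture was 2.84 for Car8, -2.65 for Cck, -2.33 for Hapln1, 2.17 for Mlip and 1.95 for Dcdc2a, where 2.91% of 11527 genes differed by at least 1. It was 0.82 for Phyhipl, -1.10 for Mgll, 0.60 for Mgrn1 and 0.95 for Tuba4a. The signs were those of the corresponding tumour difference, B16F10 minus B16F0 ECACC, for every gene tested in both. For Mlip, Car8 and Phyhipl the filter fixed the culture sign in advance, so their match says nothing. Between B16F0 ECACC and B16F0 ATCC cultures, 4 of 9 genes differed by at least 1, namely Car8 (-3.14), Phyhipl (-2.04), Cck (1.96) and Hapln1 (1.68), against 4.9% of all genes.

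**Figure D2:**
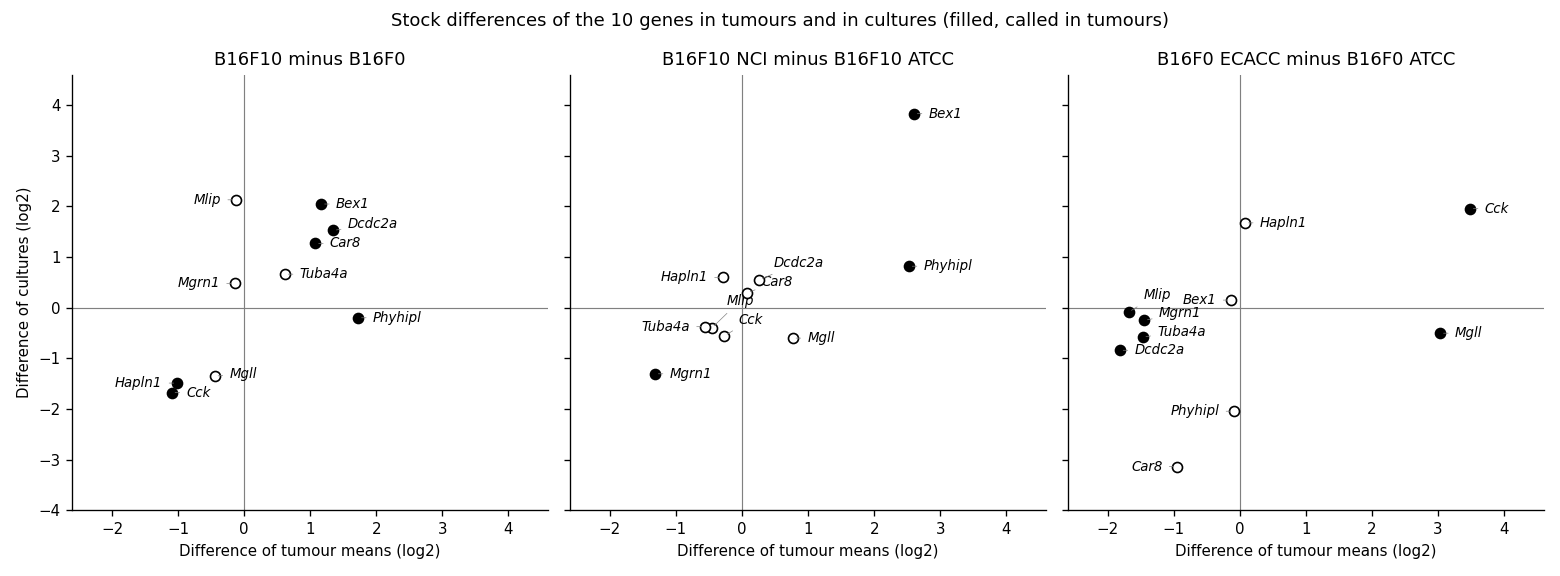
Difference between stocks in tumours (horizontal, log2) and in cultures (vertical, log2) for B16F10 minus B16F0, B16F10 NCI minus B16F10 ATCC and B16F0 ECACC minus B16F0 ATCC, 1 point a gene. Filled points were called in tumours, and 13 of 15 filled points lie in the quadrants of equal sign, with Phyhipl (left panel) and Mgll (right panel) outside them. Mlip in the right panel differs by -0.09 between cultures both under 4.30.

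Growth in the animal was compared with culture over the 4 stocks, each stock's tumour mean minus its culture. Tuba4a was lower in tumours by a difference of -1.37 ± 0.16 (n = 4 stocks, limma adjusted p = 0.00045), and Car8 by -1.06 ± 0.30 (adjusted p = 0.0186). These 2 of 10 genes were called, both lower, in a comparison that called 17.3% of 12838 genes and 16.4% as lower. By limma the median over all genes was itself -0.45, and after array medians were subtracted the differences were -1.02 for Tuba4a and -0.71 for Car8, the second no longer called (adjusted p = 0.0913). After quantile normalisation neither was called, at -0.55 for Tuba4a and -0.39 for Car8. Car8 was also not called without the B16F10 NCI culture (-0.99) or without the B16F0 ATCC culture (-0.72). Mgll, at 0.41 ± 0.52 over 4 stocks, was called without the B16F0 ATCC culture (1.15, limma adjusted p = 0.0146). The other 7 genes differed between tumours and cultures by -0.38 (Hapln1) to 0.47 (Cck), none past the test.

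Against the other lines, 5 of the 10 genes were called higher in B16 tumours. The mean of the 4 B16 groups minus the mean of the other tumour families was 2.13 ± 0.11 for Mgll (limma adjusted p = 2.52e-27), which exceeded 4.30 in the mean of 10 of the 11 other models. The other 4 were Dcdc2a (2.24 ± 0.10), Cck (2.06 ± 0.15), Hapln1 (1.23 ± 0.10) and Mlip (1.12 ± 0.17). They exceeded 4.30 in 1, 0, 1 and 2 of the other models, so they entered the comparison mainly through B16 tumours, had to differ, and are given with no test. In this comparison 7.36% of 13746 genes were called and 3.02% as higher. The error covers the spread between tumours and not that between lines. Markers of host cells moved in the same comparison: 9 of 9 macrophage and monocyte genes tested were called lower in B16 (median -2.11) and 7 of 8 fibroblast and matrix genes (median -1.73), while 8 of 8 melanocyte genes were called higher (median 5.32). Their part in the values of the 10 genes was not tested in tumours. Mgrn1 (0.89), Phyhipl (0.85), Car8 (0.78), Bex1 (0.33) and Tuba4a (-0.41) did not reach a difference of 1. Cck exceeded 4.30 in the mean of 0 of the 11 other models, the highest being TRAMPC1 (prostate) at 3.91. Hapln1 did so in 1, the T cell lymphoma EL4 (4.43), and Dcdc2a in 1, the pancreatic line PAN02 (4.58).

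Averages over B16 hid stocks that were at the level of the other lines. B16F10 NCI ranked first of 15 tumour models for Phyhipl and Bex1, while the other stocks ranked 3, 11 and 7 for Phyhipl and 15, 13 and 9 for Bex1 (B16F10 ATCC, B16F0 ECACC and B16F0 ATCC). The next model after B16F10 NCI was PAN02 for Bex1 (5.33) and TRAMPC2 for Phyhipl (4.74). For Car8, B16F0 ECACC ranked 11 with a mean of 4.17, close to the median of the other models (4.29), while B16F10 NCI and B16F10 ATCC ranked 1 and 2. For Mgrn1, the ATCC stocks ranked 1 and 2 with 7.89 and 7.68, and the highest other model, MC38 (colon), had 6.57, above both B16F0 ECACC (6.45) and B16F10 NCI (6.37). The 11 other models spanned 6.03 to 6.57 for Mgrn1, a range narrower than the gap between B16 stocks. Tuba4a went the other way, highest in the mastocytoma P815 (9.58) and in EL4 (9.34), with B16F0 ECACC ranked 14 of 15.

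Cultures of the other lines were compared in the same way. B16 cultures minus the other cultures was 1.90 ± 0.33 for Dcdc2a (limma adjusted p = 0.00133) and 2.17 ± 0.43 for Mgll (adjusted p = 0.00369), so 2 of 8 genes tested were called, both higher, against 4.08% of 12850 genes (3.4% higher and 0.677% lower). Without the B16F0 ATCC culture the values were 2.01 for Dcdc2a and 1.86 for Mgll. Cck and Hapln1 were too low outside B16 to be tested, and their highest other cultures were TRAMPC2 (4.21) and ID8 (3.80). Car8 was not highest in B16 among cultures. Its highest culture was the hepatoma Hepa1-6 (8.24), followed by TRAMPC2 (7.45). Bex1 was next highest after B16F10 NCI in EL4 (5.85) and the ovarian line ID8 (5.17).

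**Figure D3:**
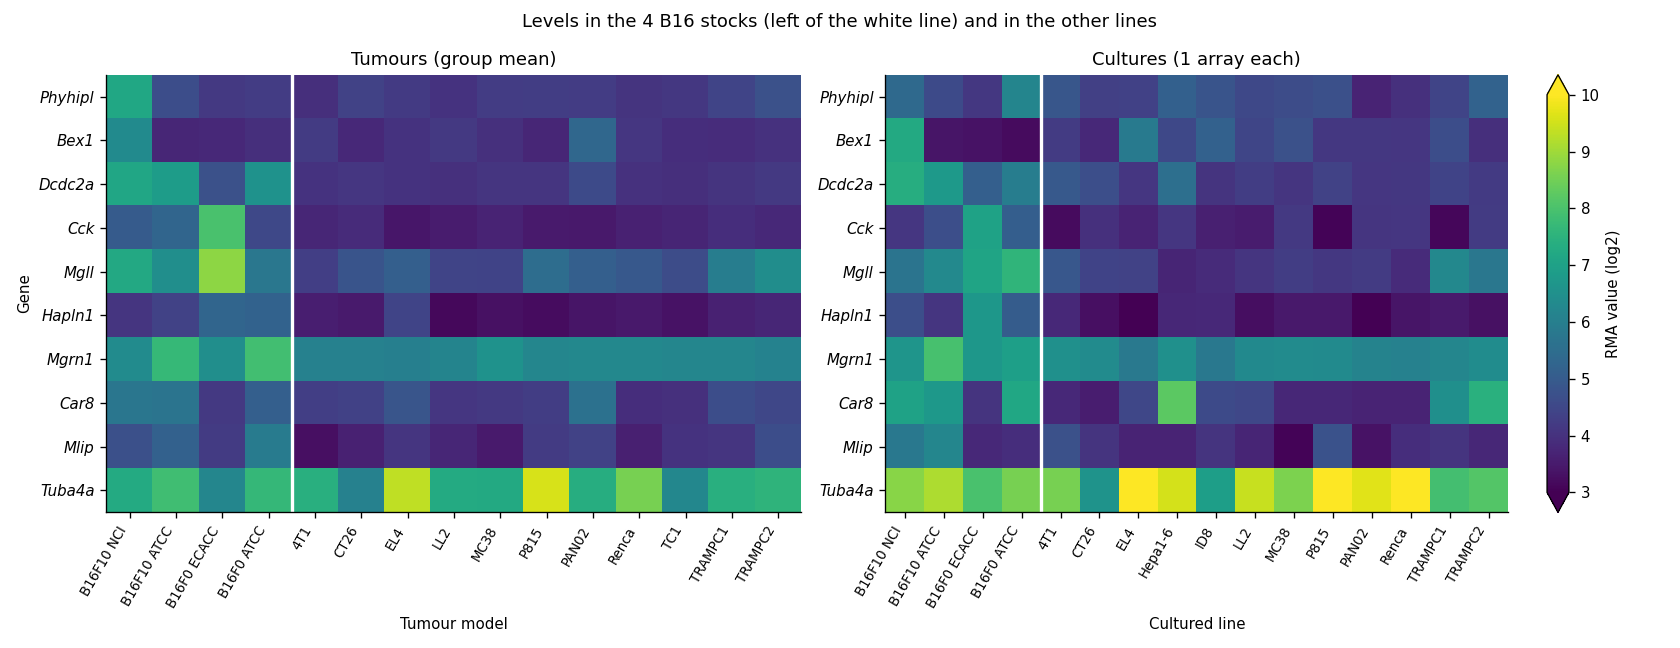
RMA values (log2, colour) of the 10 genes in 15 tumour models (left, group means) and 16 cultures (right, 1 array each), with the 4 B16 stocks left of the white line. Cck and Hapln1 are dark outside B16, and Tuba4a is brightest in P815 and EL4.

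Draining nodes and spleens of the same mice gave smaller stock differences than tumours for most of these genes. In nodes, 8 of the 10 genes could be tested and limma called 0 in each of the 3 contrasts. All genes together gave 0 called (0.0%) for B16F10 minus B16F0, 2 of 13469 (0.0148%) for B16F10 NCI minus B16F10 ATCC and 0 (0.0%) for B16F0 ECACC minus B16F0 ATCC, with 906, 969 and 475 genes at an unadjusted p under 0.05. Bex1 differed between B16F10 NCI and B16F10 ATCC nodes by 0.04 ± 0.19 and Mgrn1 by -0.19 ± 0.12, against 2.60 and -1.32 in tumours. All 20 B16-bearing nodes lay between 2.70 and 4.15 for Bex1, under 4.30. Phyhipl (3.92), Dcdc2a (3.97), Car8 (4.15) and Mlip (3.55) also averaged under 4.30 in these nodes. At such levels the node differences of these genes cannot show whether the stocks differ. Mgll, at 3.03 between B16F0 ECACC and B16F0 ATCC tumours, differed by 0.22 ± 0.39 in their nodes. Cck and Hapln1 were below the filter in nodes and spleens, with the highest of 20 B16-bearing nodes at 4.33 and 3.86. In B16-bearing spleens Phyhipl (3.97), Bex1 (3.75), Dcdc2a (4.11) and Car8 (4.18) averaged under 4.30 as well. In spleens, 7 genes could be tested and 1 was called. Tuba4a read 6.69, 7.16, 8.22, 7.40 and 7.57 in B16F10 NCI spleens, against 7.97, 9.34, 8.19, 8.42 and 8.16 in B16F10 ATCC spleens. The difference of -1.01 ± 0.29 (limma adjusted p = 0.0215) stood in a contrast that called 0.701% of 13414 genes, 0.0373% as higher and 0.663% as lower. NCI spleen 3 lay among the ATCC spleens and the other NCI spleens below them. It was not called after array medians were subtracted (-0.95), after quantile normalisation (-0.69), in a limma fit to the groups compared (adjusted p = 0.142), or without B16F10 ATCC spleen 12 (-0.78), NCI spleen 1 (-0.83) or NCI spleen 2 (-0.95). B16F10 minus B16F0 spleens called 0 of 7 (0.00745% of all genes) and B16F0 ECACC minus B16F0 ATCC spleens 0 of 7 (0.0%), with 1257 and 714 genes at an unadjusted p under 0.05.

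**Figure D4:**
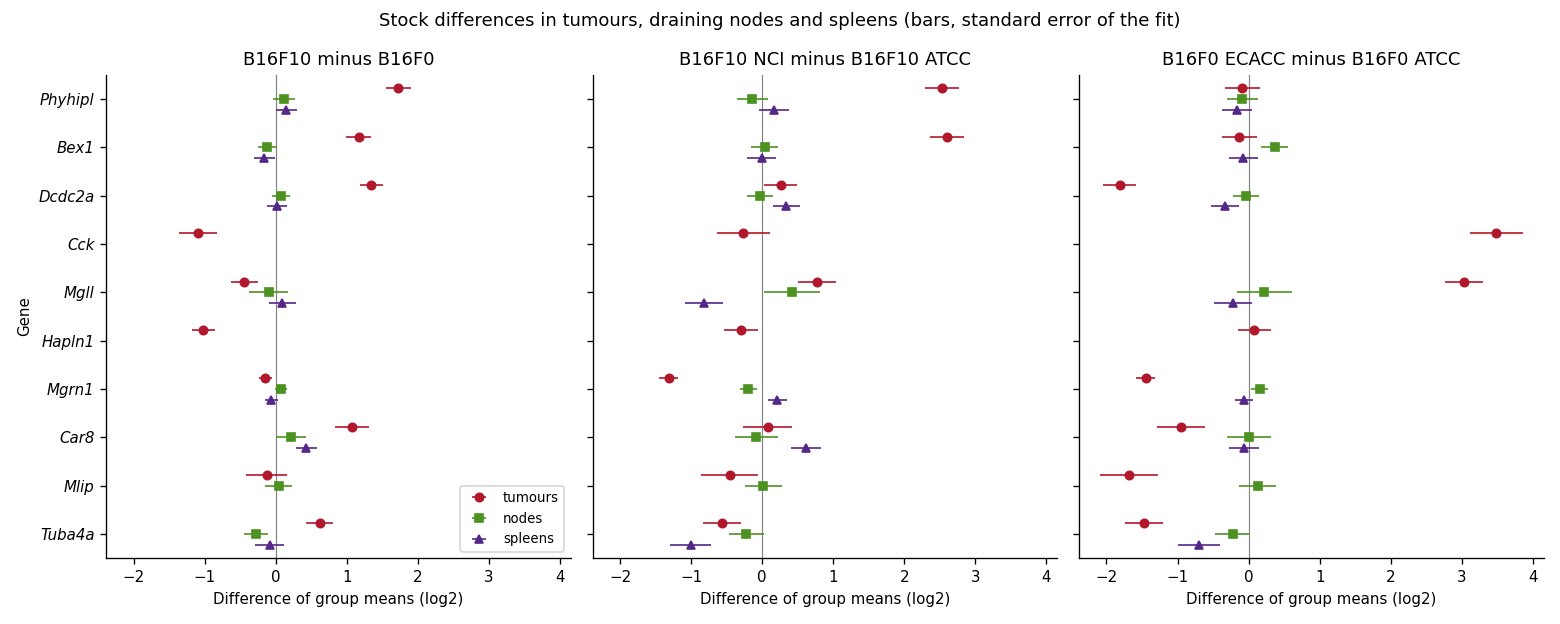
Difference between stocks (log2, horizontal, with the standard error of the limma fit) in tumours (circles), draining nodes (squares) and spleens (triangles) for each gene and 3 contrasts. Tumour values reach 3.48 while the largest node or spleen value in size is -1.01, for Tuba4a in spleens, and Cck and Hapln1 have no node or spleen value because they were too low to test.

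Genes whose pattern over the 20 tumours was most like that of each member were taken as the 2 with the highest correlation, and the 4 stock levels largely set it. For Bex1 they were the centrosomal gene Sfi1 (0.92) and the melanocyte coregulator Cited1 (0.88), and Cited1 averaged 7.30 in B16F10 NCI, 6.24 in B16F10 ATCC, 5.86 in B16F0 ECACC and 6.00 in B16F0 ATCC tumours. In cultures Cited1 did not single out NCI, with 8.03, 7.92, 7.54 and 8.14. For Mgll they were the receptor kinase Mertk (0.91) and the lysosomal trafficking gene Lyst (0.88), and Mertk averaged 6.55 in B16F0 ECACC tumours, against 4.45 in B16F0 ATCC tumours. Mertk was highest in the ECACC culture as well (6.28), with 5.49 in the B16F0 ATCC culture. The transmembrane protein gene Tmeff1 was most like both Tuba4a (0.90) and Dcdc2a (0.89), and averaged 4.21 in B16F0 ECACC and 5.65 to 5.77 in the other tumours. For Car8 the inflammasome adaptor Pycard led (0.79), with 5.04 in B16F0 ECACC tumours and 4.73 in their culture, against 6.03 to 6.77 in the other tumours and 6.83 to 8.02 in the other cultures. Phyhipl went most closely with Plxnc1, a plexin (0.88), Cck with Cpne4, a copine (0.88), and Mgrn1 with the metalloprotease Adam12 (0.82). For Hapln1 the closest gene was Abhd10 (0.81), and for Mlip it was Rpusd1 (0.77).

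Of the relatives and partners of the 10 genes, 1 was called between stocks in tumours. Of the 3 tested members of the phytanoyl-CoA hydroxylase list besides Phyhipl, 1 was called in B16F10 NCI minus B16F10 ATCC, the enzyme gene Phyh itself (1.27), which averaged 7.44 in B16F10 NCI and 6.17 in B16F10 ATCC tumours. Phyh was not called between B16F0 ECACC (7.15) and B16F0 ATCC (6.47). In the Bex family, 0 of 3 tested relatives were called. Bex4 differed most between B16F10 NCI and B16F10 ATCC (0.78), and Bex3 differed by -0.03. Genes that process or receive cholecystokinin, with gastrin, gave 0 of 4 called in each of the 3 stock contrasts, and Pcsk1, the convertase, had means of 3.37 to 3.63 in the 4 stocks. The carboxypeptidase Cpe was high in all of them (8.60 to 9.01). Of 8 endocannabinoid and monoacylglycerol genes besides Mgll, 0 were called, with Abhd12 at 0.61 between B16F0 ECACC and B16F0 ATCC as the largest. Hyaluronan genes (12 tested), carbonic anhydrases (13), tubulins (8), doublecortin-domain genes (4), pigment-switching genes (4) and lamins (2) gave 0 called in the 3 contrasts. The melanocortin receptor Mc1r, which signals in the pathway Mgrn1 restrains, averaged 7.94 in B16F10 NCI, 7.17 in B16F10 ATCC, 7.57 in B16F0 ECACC and 7.00 in B16F0 ATCC tumours, below the fold used (0.77 and 0.57).

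No neighbour of the 10 genes on the chromosome was called between stocks. Of the 60 genes formed by the 3 nearest measured genes on each side of every member, 0 were called by limma in B16F10 minus B16F0, in B16F10 NCI minus B16F10 ATCC or in B16F0 ECACC minus B16F0 ATCC tumours. The median absolute difference of the neighbours was 0.13, 0.14 and 0.15 in these contrasts, against 0.11, 0.15 and 0.16 for all genes. Bex1 lies in a cluster of Bex and Tceal genes, and 5 of its 6 neighbours differed in its direction between B16F10 NCI and B16F10 ATCC, from -0.03 (Bex3) to 0.78 (Bex4). Around Mgrn1, Nudt16l1 begins 0.815 kb downstream and differed by -0.05 between B16F0 ECACC and B16F0 ATCC, where Mgrn1 differed by -1.45. The neighbours of Cck all differed in its direction between these stocks, by 0.01 to 0.44, and those of Phyhipl ranged from -0.53 to 0.05 between B16F10 NCI and B16F10 ATCC. Hapln1 has Vcan, the proteoglycan that its protein binds, as its neighbour, and Vcan averaged 4.34 to 4.42 in tumours of the 4 stocks.

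**Figure D5:**
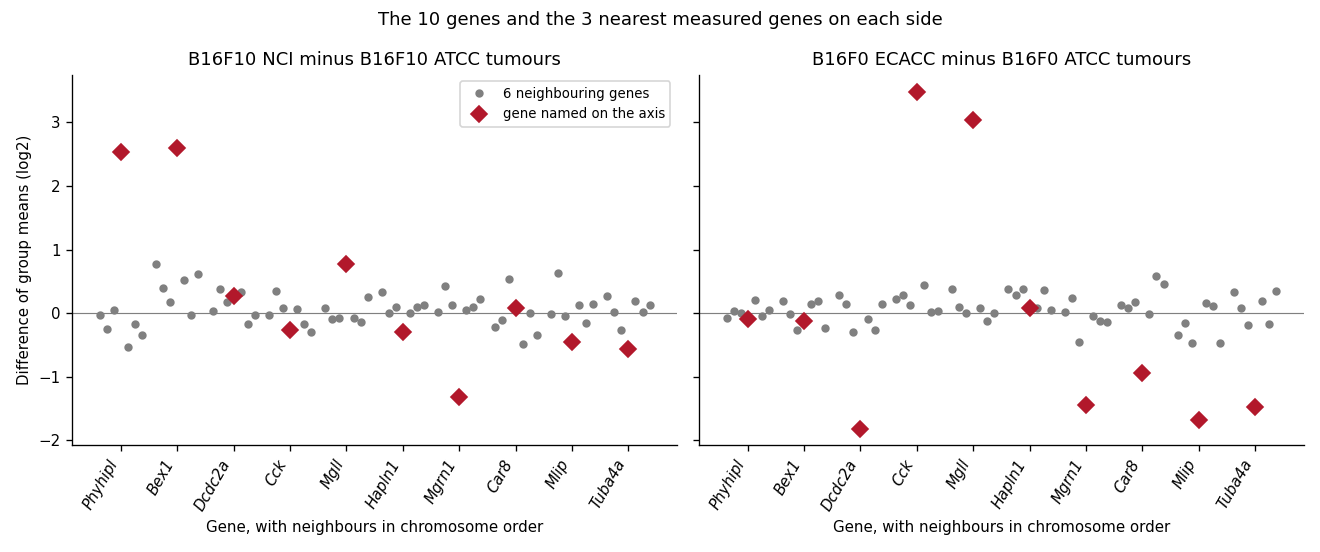
Difference between stocks in tumours (log2) for the 10 genes (diamonds) and for the 3 nearest measured genes on each side, in chromosome order (grey circles), for B16F10 NCI minus B16F10 ATCC and B16F0 ECACC minus B16F0 ATCC. No neighbour exceeds 0.78 in size, while Cck reaches 3.48.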

How the data were processed

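Total RNA from tumours, draining nodes, spleens and cultured cells was amplified and biotin-labelled, and each sample was read on 1 exon array. The deposited table holds log2 values made by the authors with RMA, per the submitters' processing notes; for the RMA version and its settings, not given in the sources used here, nothing can be said. RMA compresses differences near the lower end of the range, and no counts exist, so array number limits the precision. The 283 arrays carry 17831 probe sets, of which 15620 name 1 gene, 1370 several and 841 none; a gene with several took the one with the highest mean. Genes above 4.30 (the 25th percentile) in at least 4 arrays compared, or 2 of 4 B16 cultures, were fitted with limma 3.58.1 in R 4.3.3 (lmFit, eBayes), tissue by tissue over all groups, and p-values were Benjamini-Hochberg adjusted over all genes tested. The fits were tested on simulated data. The error behind a p is the spread between animals within groups, between cultures, or, for tumours minus cultures, between the differences of the 4 stocks. Positions and promoters are RefSeq, GRCm38.p6. The 10 genes and the gene lists were chosen with earlier results of these data known. Named besides them are the 2 genes most correlated with each over the 20 B16 tumours, relatives from fixed lists and chromosomal neighbours. The comparisons of single stocks across sublines, and those without the B16F0 ATCC culture, were added after seeing the data. Other scalings, filters, models and leaving out each sample were tried as alternatives.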

Additional observations from a re-analysis of the deposited data

Results flagged for a closer look

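Over 120 groups of 5 values, 4 held a sample far from its companions by Dixon's criterion, which chance meets in about 1 in 20 groups. Mgll was 6.45 in B16F0 ATCC tumour 11, against 5.49 to 5.69 in the other 4, and the same animal had the high Cck value among B16F0 ATCC tumours. Phyhipl was 3.39 in B16F10 ATCC node 9, against 4.12 to 4.30 in the others. Bex1 was 4.15 in B16F0 ECACC node 3, against 3.58 to 3.70, and Hapln1 was 3.86 in B16F10 ATCC node 12, against 3.06 to 3.28; these node values lie under 4.30.

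In 2 places all samples of one stock lay above all of the other in one tissue and below them in another, for stocks of the same subline; sign changes between stocks with overlapping samples, or between sublines, are not listed here. Mgll differed by 3.03 between B16F0 ECACC and B16F0 ATCC tumours and by -0.50 between their cultures. Cck differed by 0.47 between B16F10 NCI and B16F10 ATCC spleens, where it was too low to test, and by -0.56 between their cultures. With 1 culture a stock, neither difference between differences was tested.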

How the results depend on the processing

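Counts of genes called moved by over 1.5 times under 34 alternatives and by less under 385, and no value changed sign past its threshold. With only the groups compared in the fit, the count was 6 for B16F10 NCI minus B16F10 ATCC tumours, 6 for B16F10 NCI minus B16F0 ATCC tumours, 0 for B16F10 NCI minus B16F10 ATCC nodes and 2 for their spleens. Quantile normalisation gave 35 for B16F10 ATCC minus B16F0 ECACC tumours, 53 for B16F10 NCI minus B16F10 ATCC spleens, 271 for tumours minus cultures, 331 for B16 minus other cultures, 197 for B16F10 NCI minus B16F10 ATCC cultures and 312 for B16F0 ECACC minus B16F0 ATCC cultures. Subtracting array medians gave 1 for the B16F10 NCI minus B16F10 ATCC nodes and 864 for tumours minus cultures. Without the filter the culture pairs gave 749 (B16F10 NCI minus B16F10 ATCC) and 1020 (B16F0 ECACC minus B16F0 ATCC). The cause was not tested.

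Leaving out 1 sample at a time gave 5 to 12 genes for B16F10 minus B16F0 tumours (5 without NCI tumour 6), 11 to 35 for B16F10 NCI minus B16F10 ATCC (35 without NCI tumour 1, 11 without NCI tumour 5 or 6), 55 to 72 for B16F0 ECACC minus B16F0 ATCC, 0 to 1 for B16F10 ATCC minus B16F0 ATCC, 41 to 64 for B16F10 ATCC minus B16F0 ECACC, 32 to 66 for B16F10 NCI minus B16F0 ATCC (32 without NCI tumour 6, 33 without NCI tumour 5) and 62 to 81 for B16F10 NCI minus B16F0 ECACC. It gave 0 to 1, 0 to 3 and 0 to 0 in nodes and 0 to 1, 12 to 277 and 0 to 0 in spleens for B16F10 minus B16F0, NCI minus ATCC and ECACC minus ATCC; the NCI minus ATCC spleens gave 12 without NCI spleen 1, 54 without spleen 2 and 277 without spleen 3. It gave 1003 to 1036 for B16 minus other tumours, 2057 to 2635 for tumours minus cultures and 371 to 408 for B16 minus other cultures.

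In B16F0 ECACC minus B16F0 ATCC cultures, quantile normalisation gave -1.52 for Phyhipl, 1.06 for Hapln1 and -2.25 for Car8. With animal number as a replicate block, the tumour counts were 8, 18 and 64 for B16F10 minus B16F0, NCI minus ATCC and ECACC minus ATCC, and 1012 for B16 minus others; nodes gave 0, 2 and 0 and spleens 1, 94 and 0. Same numbers are different mice, and deviations of same-numbered tumours correlated at a median of 0.0247 (8 pairs), so the numbers do not pair samples. Cultures are single arrays, and low values such as Bex1 outside B16F10 NCI are bounded by array background.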

Other observations

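Relatives of the 10 genes also differed between B16 and the other tumour families in the limma fit that called 7.36% of 13746 genes. Of 13 carbonic anhydrases tested besides Car8, 3 were called higher in B16 and 1 lower, with differences over the family from -1.95 to 5.74. Car6, a secreted carbonic anhydrase, averaged 10.28, 10.26, 10.63 and 10.39 in B16F10 NCI, B16F10 ATCC, B16F0 ECACC and B16F0 ATCC tumours, and 10.12, 9.89, 10.03 and 9.12 in their cultures. Of 4 doublecortin-domain genes tested besides Dcdc2a, the kinases Dclk1 and Dclk2 were called higher. Of the 4 tested genes that make or receive cholecystokinin, 1 was called, the carboxypeptidase Cpe, higher by 2.10. In the pigment-switching list 1 of 4 was called, the melanocortin receptor Mc1r, higher by 1.78. Of 12 hyaluronan genes tested besides Hapln1, 2 were called lower, the synthase Has2 and the proteoglycan Vcan. The lists of the Bex family (3 tested) and of the phytanoyl-CoA hydroxylase interactors (3 tested) gave 0 called by limma here.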
